A study of Mus musculus with 6 samples.

Results

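The immediate early genes Nr4a1, Nr4a2, Nr4a3, Egr1, Egr2, Egr3, Fos, Fosb, Jun and Junb were followed in sorted mouse CD4+CD25+ T cells that carried the inhibitory receptor ILT3 on their surface (ILT3+) or did not (ILT3-). They were chosen by name, with earlier results of these data known, as 10 of the 38924 genes in the deposited tables. All 10 had enough reads to be tested. Both groups came from spleen and mesenteric lymph nodes of untreated, syngeneic, wild-type (WT) male and female mice, 10 to 16 weeks old, with 3 samples in the ILT3+ group and 3 in the ILT3- group. CD4+CD25+ cells were pre-enriched on magnetic columns and then sorted, and the labels do not say how many animals made up a sample or whether samples came from separate animals. P-values therefore rest on sample-to-sample spread, part of which may be technical. In bulk RNA, fewer cells with a transcript and less of it per cell cannot be told apart.

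Immediate early genes are switched on within minutes of a stimulus from transcription factors already present in the cell, and their mRNAs are short-lived. In T cells an antigen receptor signal reaches them through calcium and MAP kinases. The NR4A proteins are orphan nuclear receptors, the EGR proteins are zinc finger factors, and FOS and JUN proteins pair to form the factor AP-1. NR4A and EGR genes are widely read as a record of recent receptor signalling in T cells, and NR4A factors also take part in Foxp3 expression and Treg development. FOS and JUN genes in addition respond to stress and to the handling of dissociated tissue.

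The upstream sequences of the 3 NR4A genes and of Fos and Fosb are shown. Of these, Nr4a1, Nr4a3 and Fos were called lower in ILT3+ by edgeR with the sample number as a block, described below. Nr4a2 and Fosb were not called by that fit. The windows of Egr2, Jun and Junb were searched but are not shown. RefSeq entries on GRCm38.p6 were found for 8 of the 10 genes, all but Egr1 and Egr3. Each line gives the 250 bases before the start of the transcript on the coding strand, 5′ to 3′. Capitals mark TGACG on either strand, the core of the cyclic AMP response element (CRE), and the EGR site GCGGGGGCG or GCGTGGGCG on either strand. The windows lie at chr15:101266596-101266845 (plus strand) for Nr4a1, chr2:57124004-57124253 (minus strand) for Nr4a2, chr4:48045055-48045304 (plus strand) for Nr4a3, chr12:85473640-85473889 (plus strand) for Fos and chr7:19310046-19310295 (minus strand) for Fosb. The RefSeq start of Nr4a3 lies inside the gene as the files place it.
Nr4a1: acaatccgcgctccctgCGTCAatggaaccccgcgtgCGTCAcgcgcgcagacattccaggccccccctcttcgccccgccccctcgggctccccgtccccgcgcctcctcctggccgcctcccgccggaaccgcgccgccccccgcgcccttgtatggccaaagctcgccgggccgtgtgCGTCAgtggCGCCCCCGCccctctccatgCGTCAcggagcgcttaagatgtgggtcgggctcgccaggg
Nr4a2: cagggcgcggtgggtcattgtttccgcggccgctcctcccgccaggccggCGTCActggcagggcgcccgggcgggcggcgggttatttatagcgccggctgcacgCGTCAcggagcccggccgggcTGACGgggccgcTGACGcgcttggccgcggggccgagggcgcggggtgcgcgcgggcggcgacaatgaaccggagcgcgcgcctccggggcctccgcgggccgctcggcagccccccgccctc
Nr4a3: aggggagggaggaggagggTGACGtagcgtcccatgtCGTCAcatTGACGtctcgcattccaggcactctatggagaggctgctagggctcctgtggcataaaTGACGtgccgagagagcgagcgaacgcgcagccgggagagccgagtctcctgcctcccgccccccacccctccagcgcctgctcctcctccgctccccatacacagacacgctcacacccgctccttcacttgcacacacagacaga
Fos: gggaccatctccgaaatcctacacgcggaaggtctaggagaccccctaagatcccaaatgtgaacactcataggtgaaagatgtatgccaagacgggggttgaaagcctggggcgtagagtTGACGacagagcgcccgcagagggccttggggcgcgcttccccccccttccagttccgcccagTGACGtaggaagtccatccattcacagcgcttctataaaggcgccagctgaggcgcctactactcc
Fosb: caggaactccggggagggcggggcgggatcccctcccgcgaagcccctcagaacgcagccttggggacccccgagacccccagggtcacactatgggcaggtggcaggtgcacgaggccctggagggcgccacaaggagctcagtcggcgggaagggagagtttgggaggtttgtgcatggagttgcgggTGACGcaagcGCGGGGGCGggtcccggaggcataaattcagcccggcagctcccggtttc
Each NR4A window held 4 matches to TGACG, and 4 or more were found in 45 of 32851 promoter windows of the same length (0.137%). Fos held 2 matches, Fosb and Junb 1 each, Jun 0, and Egr2 2 in 3 of its 5 windows, while at least 1 match was found in 17.8% of all windows. Nr4a1 and Fosb each held 1 EGR site, which 3.06% of all windows held. A CArG box, the site of serum response factor, was sought in its strict form CCWWWWWWGG (W is A or T). Among the 8 genes it was found only in Egr2, in 4 of its 5 windows, against 1.47% of all windows. Sites further upstream than 250 bases were not looked for, and Egr1 and Egr3 had no window. No window of the 8 genes held the full CRE TGACGTCA (1.55% of all windows), which contains the core, or the AP-1 site TGACTCA or TGAGTCA (4.46%).

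ILT3+ libraries held 10768217 to 11960289 gene reads, and ILT3- libraries 9334370 to 13648274. Levels are CPM, the read count scaled to library size, after TMM scaling for library composition. Lilrb4, the gene of ILT3, averaged 332 ± 65.8 CPM over ILT3+ samples, against 4.46 ± 1.29 CPM over ILT3- samples (SD, n = 3 each, edgeR adjusted p = 0.000327). Foxp3, the Treg lineage factor, averaged 861 ± 127 CPM over ILT3+ samples, against 862 ± 233 CPM over ILT3- samples. Summed T cell markers reached 2556 to 3853 CPM in ILT3+ samples, against 3046 to 4295 CPM in ILT3- samples. Summed Treg markers reached 3623 to 4558 CPM in ILT3+ samples, against 3536 to 4223 CPM in ILT3- samples. The libraries numbered 1 in both groups stood apart from the other 4 in the immediate early genes, as described next, so the fold changes of the 10 genes are also given with the sample number in the fit. ILT3+ sample 1 in addition held macrophage and monocyte markers, whose 11 genes summed to 1062 CPM, against 29.0 and 36.1 CPM in ILT3+ samples 2 and 3 and 34.1, 19.3 and 11.6 CPM in ILT3- samples 1, 2 and 3. Vcam1 and Csf1r led them. Of those 11 genes 7 were tested, and 0 were called by edgeR on the group alone, DESeq2 or limma voom, with 4 higher at an unadjusted p under 0.05 and 3 called higher with the sample number as a block. Red cell and platelet markers, with Ppbp and Pf4 at 0, summed to 203, 42.1 and 46.7 CPM in ILT3+ samples 1, 2 and 3, against 5.29, 0.550 and 1.02 CPM in the ILT3- samples, and 2 of the 4 tested were called higher by edgeR on the group alone. DESeq2 and the fit with the block called 4 of these 4 higher, and limma voom 0. These 4 genes passed the filter on low counts only through the ILT3+ libraries, and their fitted folds rest on few ILT3- reads. Dendritic cell markers, with Cd209a at 0, summed to 33.5 to 64.3 CPM in ILT3+ samples and 4.33 to 14.1 CPM in ILT3- samples, and B cell markers to 34.1 to 72.4 CPM against 21.2 to 36.3 CPM. CD8 T and NK cell markers reached 53.9 CPM at most, and neutrophil markers 0.402 CPM (S100a8 and Elane at 0). The part of these cells in the results below was not tested.

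The NR4A genes were lower in ILT3+ than in ILT3- samples in each same-number pair. On the group alone none of the 3 passed edgeR's test, and with the sample number in the fit Nr4a1 and Nr4a3 fell while Nr4a2 missed the threshold. Nr4a1, also known as Nur77, whose product follows the strength of antigen receptor signals, lies at chr15:101266846-101274792. It had 156, 206 and 275 CPM in ILT3+ samples 1, 2 and 3, against 343, 409 and 994 CPM in ILT3- samples 1, 2 and 3. All 3 ILT3+ samples were below all 3 ILT3- samples. Nr4a1 was the only member whose groups did not overlap, against 20.2% of all tested genes in either direction and 8.76% lower. On the group alone, edgeR's quasi-likelihood test gave a log2 fold change of -1.45 with a standard error of 0.43 (adjusted p = 0.160). With the sample number as a block it fell by 1.32 on the log2 scale with a standard error of 0.18 (edgeR adjusted p = 0.0121). The log2 ratio within pairs 1, 2 and 3 was -1.13, -0.99 and -1.85, on CPM with 0.5 added. The model of Nr4a1 in the files is shorter than the GENCODE M21 gene on the same build (chr15:101254269-101274795). Reads from the rest of that gene are not in these counts, and the upstream window shown above lies inside it.

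Nr4a3, or NOR-1, a close relative of Nr4a1 that is largely redundant with it in T cells, lies at chr4:48045153-48086447. It had 14.0, 31.0 and 40.9 CPM in ILT3+ samples 1, 2 and 3, against 28.4, 77.3 and 149 CPM in ILT3- samples 1, 2 and 3. The groups overlapped, because ILT3- sample 1 was below ILT3+ samples 2 and 3. The log2 fold change was -1.57 with a standard error of 0.60 (edgeR adjusted p = 0.295), and with the block Nr4a3 fell by 1.41, with a standard error of 0.21 (edgeR adjusted p = 0.0153). Within pairs the log2 ratio was -0.99, -1.31 and -1.85 in pairs 1, 2 and 3.

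Nr4a2, or NURR1, best known from dopamine neurons and also induced by the T cell receptor, lies at chr2:57106830-57124003. It had 24.0, 47.4 and 85.8 CPM in ILT3+ samples 1, 2 and 3, against 32.8, 84.9 and 218 CPM in ILT3- samples 1, 2 and 3. ILT3+ was the lower one in every pair (log2 ratios -0.44, -0.83 and -1.34), but the groups overlapped. Its log2 fold change was -1.09 with a standard error of 0.68 (edgeR adjusted p = 0.572), and -0.89 ± 0.20 (SE) with the block (edgeR adjusted p = 0.0523).

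Of the EGR genes Egr1 moved like the NR4A genes, while Egr2 did not. Egr1, a growth factor and receptor response gene at chr18:34859823-34864984, had 20.5, 44.4 and 100.4 CPM in ILT3+ samples 1, 2 and 3, against 58.6, 72.3 and 220.4 CPM in ILT3- samples 1, 2 and 3. It was lower in ILT3+ in all 3 pairs (log2 ratios -1.50, -0.70 and -1.13), and the groups overlapped through ILT3+ sample 3. The log2 fold change was -1.09 with a standard error of 0.66 (edgeR adjusted p = 0.556), and with the block Egr1 fell by 1.11, with a standard error of 0.19 (edgeR adjusted p = 0.0221).

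Egr2, which restrains T cell activation and is linked to anergy, lies at chr10:67535475-67542188. It had 54.1, 82.8 and 154 CPM in ILT3+ samples 1, 2 and 3, against 19.7, 52.0 and 239 CPM in ILT3- samples 1, 2 and 3. Pairs 1 and 2 had higher values in ILT3+ (log2 ratios 1.44 and 0.66) and pair 3 a lower one (-0.63), so the direction differed between pairs. The fitted log2 fold change was -0.09 with a standard error of 0.81 (edgeR adjusted p = 0.981) and 0.47 ± 0.37 (SE) with the block (edgeR adjusted p = 0.541).

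Egr3, a partner of Egr2 in the negative feedback on T cell activation, lies at chr14:70077445-70080157 and had few reads. It had 9, 14 and 18 reads in ILT3+ samples 1, 2 and 3, against 16, 17 and 58 reads in ILT3- samples 1, 2 and 3. ILT3+ was lower in each pair, and the groups overlapped. The log2 fold change was -1.13 with a standard error of 0.66 (edgeR adjusted p = 0.536). Its model in the files is shorter than the GENCODE M21 gene on the same build (chr14:70077203-70082614), so reads from the rest of that gene are not in these counts.

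Among the AP-1 genes the sample number went with larger differences than the group did, and Fos was the one that fell in ILT3+ once the number was in the fit. Fos, the FOS partner of AP-1, at chr12:85473890-85477273, had 420.5, 6.27 and 13.3 CPM in ILT3+ samples 1, 2 and 3, against 875, 16.7 and 26.2 CPM in ILT3- samples 1, 2 and 3. Sample 1 was 42.9-fold above the mean of samples 2 and 3 in the ILT3+ group, and 40.9-fold above it in the ILT3- group. Within each pair Fos was lower in ILT3+, with log2 ratios of -1.06, -1.34 and -0.95. The group alone gave a log2 fold change of -1.06 with a standard error of 1.78 (edgeR adjusted p = 0.874), and with the block Fos fell by 1.13, with a standard error of 0.13 (edgeR adjusted p = 0.00791).

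Fosb, a FOS relative with its own short isoform, lies at chr7:19302721-19310045. It had 163, 5.95 and 5.82 CPM in ILT3+ samples 1, 2 and 3, against 139.8, 9.04 and 9.88 CPM in ILT3- samples 1, 2 and 3. Sample 1 exceeded the mean of the other samples of its group 27.6-fold in ILT3+ and 14.8-fold in ILT3-. The log2 fold change between groups was 0.14 with a standard error of 1.46 (edgeR adjusted p = 0.983), and -0.34 ± 0.24 (SE) with the block (edgeR adjusted p = 0.495).

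Jun, the main JUN partner of AP-1, lies at chr4:95049034-95052222. It had 425, 69.7 and 105 CPM in ILT3+ samples 1, 2 and 3, against 1365, 58.6 and 61.8 CPM in ILT3- samples 1, 2 and 3. ILT3+ was lower in pair 1 and higher in pairs 2 and 3. The log2 fold change was -1.31 with a standard error of 1.24 (edgeR adjusted p = 0.751), and -0.21 ± 0.45 (SE) with the block (edgeR adjusted p = 0.841). Only 62.9% to 77.6% of the reads of Jun were uniquely placed, against at least 99.4% for each other member, and its model overlaps the row BC042782, which had 30 to 48 reads per library.

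Junb, a JUN protein that is needed for effector Treg function in mice, lies at chr8:84976909-84978748. It had 913, 544 and 528 CPM in ILT3+ samples 1, 2 and 3, against 1055, 324 and 307 CPM in ILT3- samples 1, 2 and 3. The 2 groups interleaved, with both samples 1 on top. The log2 fold change was 0.24 with a standard error of 0.50 (edgeR adjusted p = 0.901), and 0.44 ± 0.21 (SE) with the block (edgeR adjusted p = 0.285). Without both samples numbered 1 Junb rose by 0.79 with a standard error of 0.15 (edgeR adjusted p = 0.0238). The GENCODE M21 gene of Junb on the same build (chr8:84974484-84978718) extends beyond the model in the files. Reads from the part outside the model are not in these counts.

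**Figure D1:**
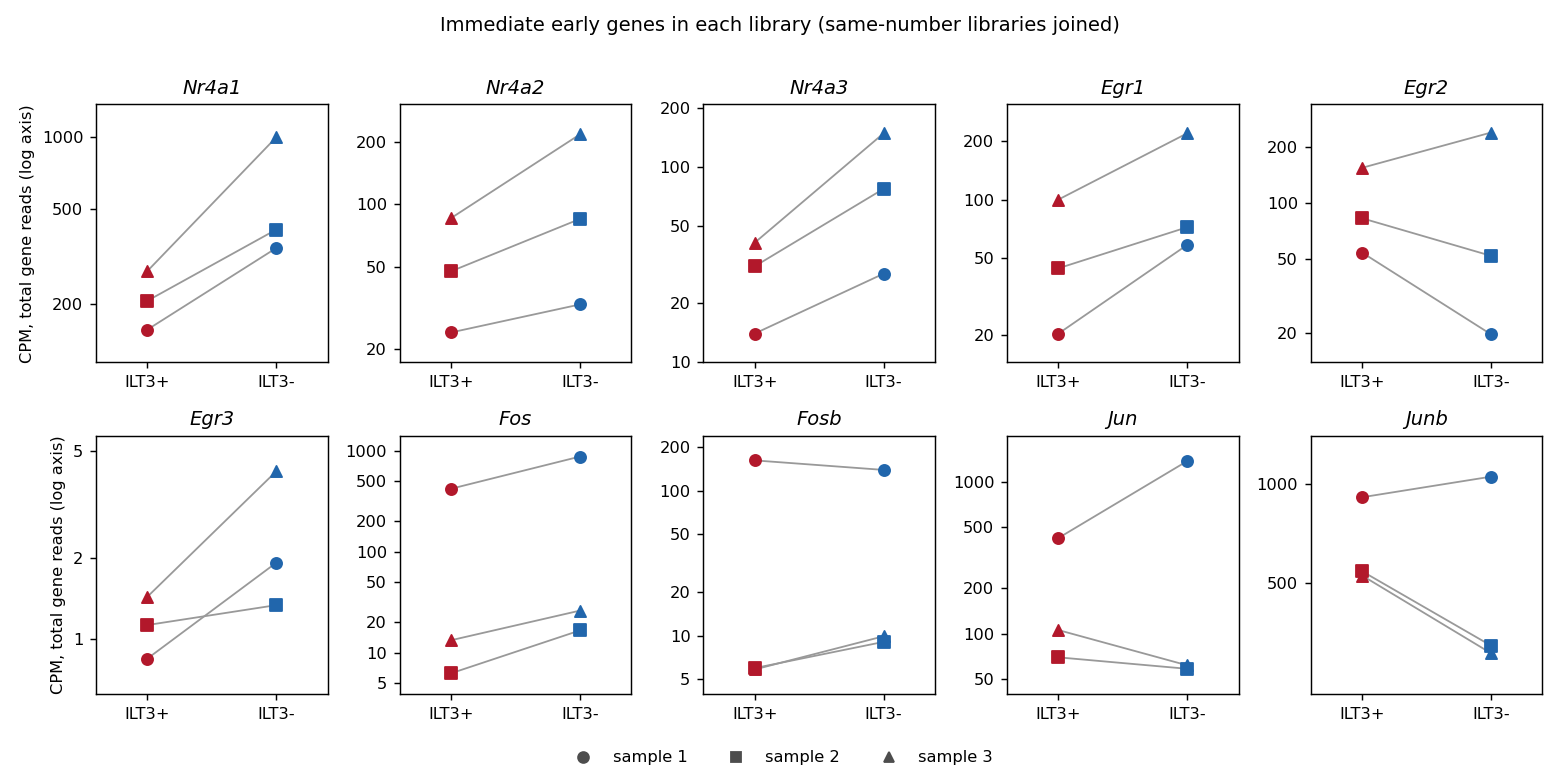
CPM of the 10 genes on log axes, ILT3+ libraries left and ILT3- libraries right in each panel, 1 point per library, with lines joining libraries of the same number. In Nr4a1 the 3 ILT3+ points (156 to 275 CPM) lie below the 3 ILT3- points (343 to 994 CPM), while in Fos both samples 1 (420.5 and 875 CPM) lie far above the other 4 (6.27 to 26.2 CPM).

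Over the 10 genes edgeR called 0 on the group alone, against 2.31% of 13694 tested genes (1.96% higher and 0.343% lower). At an unadjusted p under 0.05 Nr4a1 and Nr4a3 were lower, 2 of 10, against 5.37% of tested genes lower and 13.8% in either direction. DESeq2 called 1, Nr4a1 (adjusted p = 0.0108), against 697 genes higher and 254 lower of 13694. It gave no adjusted p for Fos, Fosb and Jun. By limma voom 0 members were called, with 1 at an unadjusted p under 0.05, against 272 genes called higher and 57 lower. With the sample number as a block 4 were lower and 0 higher (Nr4a1, Nr4a3, Egr1 and Fos), against 2.62% of tested genes lower, 4.18% higher and 6.81% in either direction. Lower values in ILT3+ in all 3 pairs were found for 6 of 10 genes, the 3 NR4A genes, Egr1, Egr3 and Fos, against 22.6% of tested genes, and higher values in all 3 pairs for 0 of 10, against 22.4%. The median log2 fold change of the 10 genes was -1.09, and that of all tested genes -0.02.

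The unblocked differences of the NR4A genes, Egr1 and Egr3 depended in size on ILT3- sample 3. Without it the log2 fold change was -0.82 for Nr4a1, -0.16 for Nr4a2, -0.88 for Nr4a3, -0.24 for Egr1 and -0.50 for Egr3. The blocked calls rested on the pairs. They leave 2 residual degrees of freedom, and the labels do not state the pairing, which was taken from these same data. In the blocked fit without both samples numbered 1, a setting chosen after seeing the data, 5 of the 10 genes were lower (Nr4a2 added, adjusted p = 0.00115) and Junb was higher (adjusted p = 0.000947), with 12.2% of 13942 genes called (4.22% lower and 7.98% higher). Without both samples numbered 2, and likewise without both numbered 3, edgeR called 0 of the 10 genes, with 5 and 4 lower at an unadjusted p under 0.05 and 0.937% and 0.691% of genes called. On the group alone without both samples numbered 1, Nr4a3 was lower (adjusted p = 0.0323) and Junb higher, against 5.64% of genes called (1.15% lower and 4.48% higher).

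**Figure D2:**
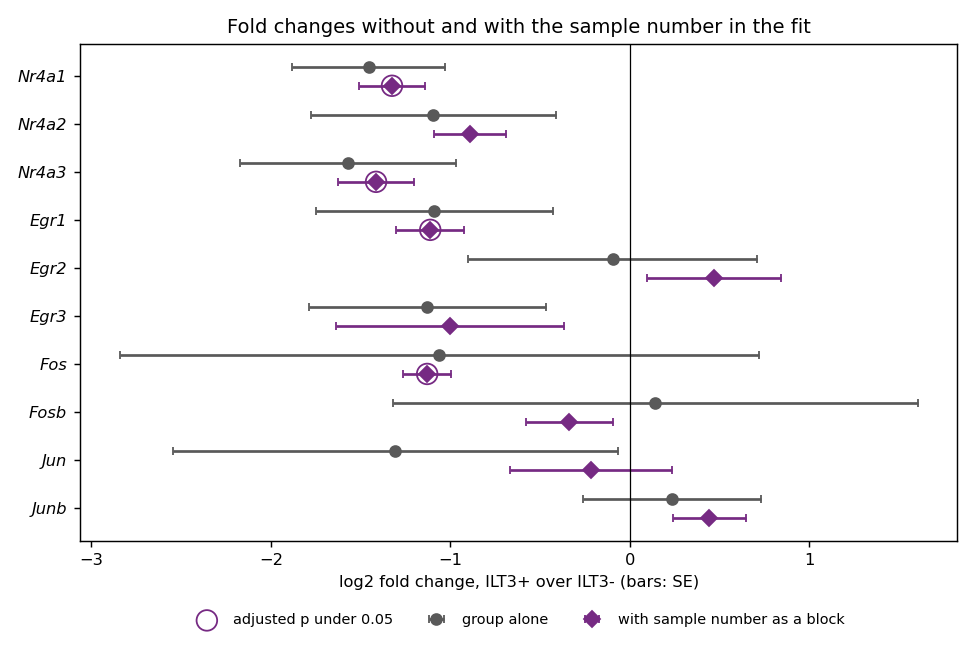
Log2 fold changes of ILT3+ over ILT3- for the 10 genes, with SE bars, from edgeR on the group alone (grey circles) and with the sample number as a block (purple diamonds, ringed where the adjusted p is under 0.05). Nr4a1, Nr4a3, Egr1 and Fos are ringed, and the SE of Fos is 1.78 on the group alone and 0.13 with the block.

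The families split by sample number. In both groups samples 1 had lower values than the mean of samples 2 and 3 for all 6 NR4A and EGR genes, where 34.9% of tested genes were lower in both. They had higher values for all 4 AP-1 genes, a direction whose share of tested genes was not counted. Of these 4, Junb differed least, 1.70-fold in ILT3+ and 3.34-fold in ILT3-, with log2 ratios above those of 86.3% and 96.8% of tested genes. Fos, Fosb and Jun were at least 4-fold higher in both samples 1, as were 0.694% of tested genes, and Fos and Fosb at least 8-fold, as were 0.124%. For Nr4a2 the ratio of sample 1 to the mean of samples 2 and 3 was 0.361 in ILT3+ and 0.217 in ILT3-, and for Egr2 it was 0.456 and 0.136. Among 8608 genes of at least 10 CPM on average, predicted, pseudogene and mitochondrial names left out, ranked by the smaller of the 2 log2 ratios, Fos was the 2nd and Fosb the 5th highest. The 1st and 3rd were Hspa1b and Hspa1a, inducible HSP70 genes. Hspa1a had 518, 9.09 and 20.3 CPM in ILT3+ samples 1, 2 and 3, against 655, 2.44 and 2.18 CPM in ILT3- samples 1, 2 and 3. The sample number cannot be told apart from whatever else samples 1 shared. Mitochondrial ribosomal RNA made up 2.27% and 2.96% of the reads of ILT3+ and ILT3- sample 1, against 1.13% to 1.66% in the other 4 libraries. The macrophage markers summed to 1062 CPM in ILT3+ sample 1 and 34.1 CPM in ILT3- sample 1. Their part in the Fos levels of samples 1 was not tested.

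**Figure D3:**
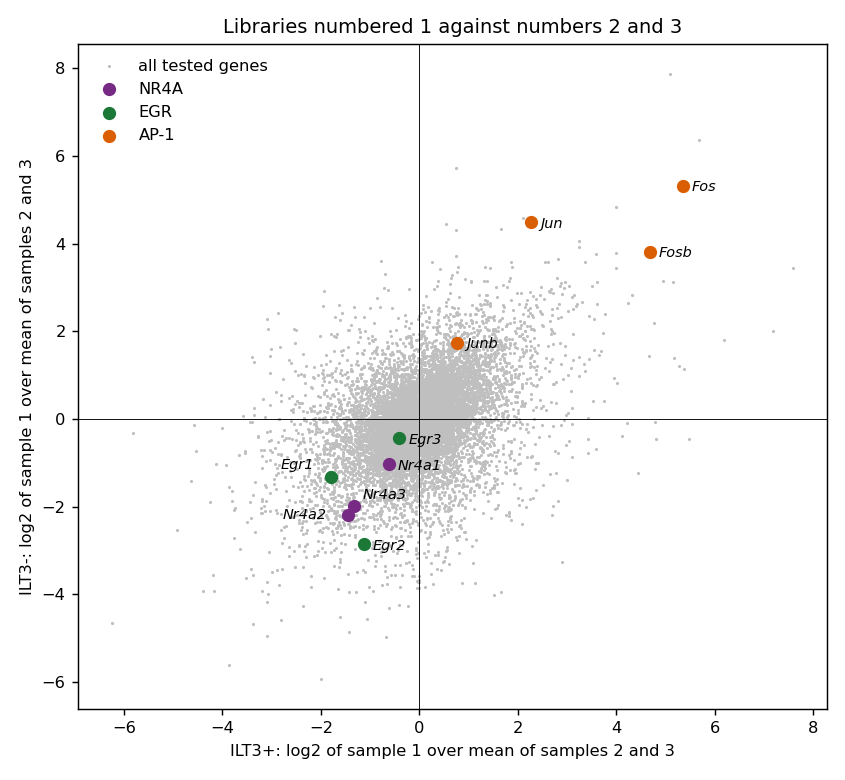
Each point is a gene, with the log2 ratio of sample 1 to the mean of samples 2 and 3 in the ILT3+ group on the x axis and in the ILT3- group on the y axis (CPM with 0.5 added). Fos (5.35 and 5.32), Fosb and Jun lie in the upper right, and the NR4A and EGR genes lie in the lower left.

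Reads counted in introns are commonly taken as unspliced RNA, closer to ongoing transcription than exon reads. Other sources of such reads were not tested here. For Nr4a1 they made up 23.6%, 3.39% and 4.18% of its reads in ILT3+ samples 1, 2 and 3, against 34.5%, 4.42% and 5.05% in the ILT3- libraries. For Nr4a2 they made up 56.6%, 9.49% and 12.9% in ILT3+ libraries, against 63.4%, 12.6% and 10.4% in the ILT3- libraries. Both samples 1 were thus the highest for these genes, although their total levels of Nr4a2 were the lowest. Fosb had 44.4%, 18.9% and 2.74% of its reads in introns in ILT3+ samples 1, 2 and 3, against 44.7%, 15.7% and 4.41% in the ILT3- libraries. Samples 1 had the highest share in 5 of the 8 members with introns (Nr4a1, Nr4a2, Egr1, Fos and Fosb), against 11.7% of 12547 tested genes. For Egr1 this rested on 7 and 9 intron reads in ILT3+ and ILT3- sample 1, against 0 to 8 in the other 4 libraries. Egr2 had 0 to 11 intron reads per library and Egr3 0 to 2, too few to rank well. Over whole libraries the intron share was 25.5% and 28.3% in ILT3+ and ILT3- sample 1, and 24.0% to 27.5% in the other 4.

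Compared as unpaired groups, the intron shares differed by less than the spread between samples, to which samples 1 added most for Nr4a1, Nr4a2 and Fosb. The exact two-sided permutation p, which leaves the sample number out of account, was 0.40 to 1.0 for the 8 genes, with 0.10 the smallest that 3 samples against 3 allow. By pairs, the share of Nr4a1 was lower in ILT3+ in all 3, while that of Nr4a2 was lower in pairs 1 and 2 and higher in pair 3. These pair differences were not tested. For Nr4a3, the member with the highest mean intron share in both groups, the share was 50.5 ± 12.4% over ILT3+ samples and 49.2 ± 6.35% over ILT3- samples (SD, n = 3 each). Exon reads and intron reads gave the same direction for each NR4A gene. With the block, Nr4a1 fell by 1.26 on exon reads, with a standard error of 0.18 (edgeR adjusted p = 0.0140) and by 1.61 on intron reads with a standard error of 0.24 (edgeR adjusted p = 0.0202). Nr4a3 fell by 1.51 on exon reads, with a standard error of 0.32 (edgeR adjusted p = 0.0450), and its log2 fold change on intron reads was -1.27 (SE 0.29, adjusted p = 0.0826). On the group alone edgeR called 0 of 10 on exon reads, with 2 lower at an unadjusted p under 0.05 (2.05% of genes called), and 0 of the 4 tested on intron reads, with 0 at that p (0.689% of genes called). Exon reads with the block called the same 4 genes lower as total gene reads, against 6.07% of genes called and 2.47% lower, and intron reads 1 of the 4 tested, against 2.3% called and 0.6% lower.

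**Figure D4:**
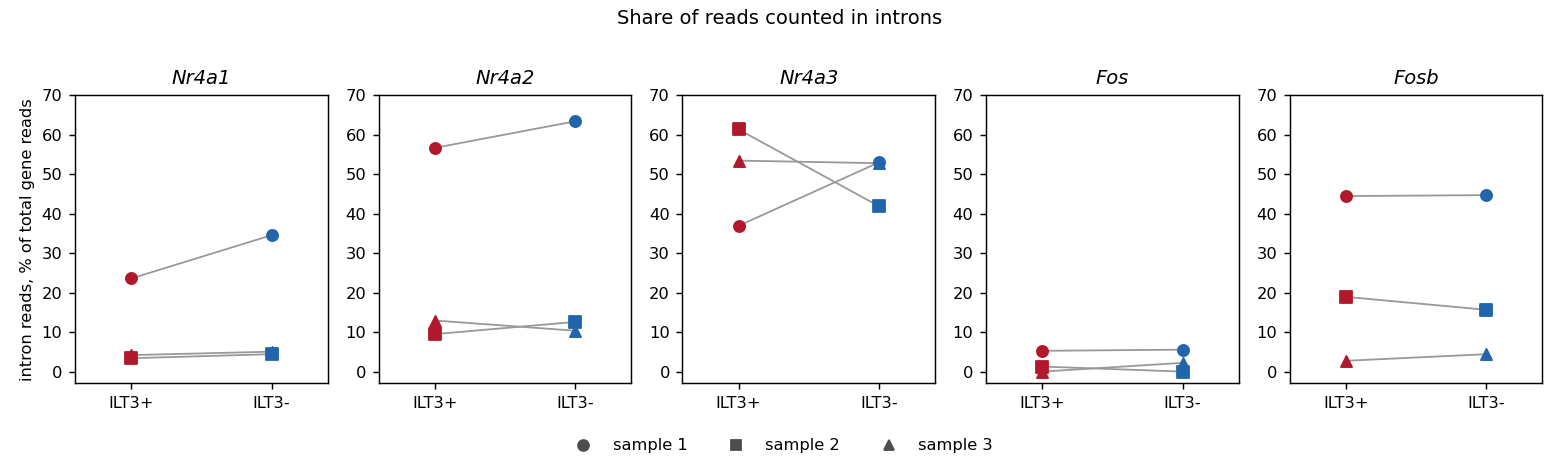
Intron reads as a percentage of total gene reads for Nr4a1, Nr4a2, Nr4a3, Fos and Fosb, ILT3+ libraries left and ILT3- libraries right, with same-number libraries joined. Samples 1 lie on top in Nr4a1, Nr4a2, Fos and Fosb, and the samples mix in Nr4a3 (36.9% to 61.3%).

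Spliced reads, which cross an exon junction, were also counted. Nr4a1 had 147, 339 and 420 of them in ILT3+ samples 1, 2 and 3, against 201, 656 and 1736 in ILT3- samples 1, 2 and 3. Nr4a2 had 11, 63 and 124 in ILT3+ libraries, against 2, 118 and 354 in the ILT3- libraries. Fos had 224, 4 and 8 in ILT3+ libraries, against 416, 14 and 14 in the ILT3- libraries. For Nr4a1 and Nr4a2 samples 1 were thus the lowest of their group in spliced reads, and for Fos they were the highest.

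Levels per exon length differed widely among the members. As exon CPM per kilobase of exon, the medians over the 6 libraries were 292 for Junb, 98.5 for Nr4a1, 27.5 for Jun, 20.0 for Egr2, 14.4 for both Nr4a2 and Egr1, 8.98 for Fos, 2.71 for Nr4a3, 2.28 for Fosb and 0.979 for Egr3. The ranges of all neighbours in that order overlapped. Junb exceeded Nr4a1 in 5 of 6 libraries, and Nr4a2 exceeded Egr1 in 2 of 6. The highest library exceeded the lowest 134-fold for Fos, 23.3-fold for Jun and 3.43-fold for Junb. Variation between samples of a group was likewise uneven. On the group alone the edgeR biological coefficient of variation of Fos was 1.30, above 99.6% of tested genes, and with the block it was 0.136, above 7.08% of them. That of Nr4a1 was 0.374 and 0.175.

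Other genes of the pathway were read from lists chosen with earlier results of these data known. In the AP-1 family beyond the members, 9 of 11 genes were tested, Batf and Batf3 rose, 0 fell, and the median log2 fold change was -0.20. Batf, a partner of JUN proteins and IRF4 in effector T cells, had 197, 149 and 222 CPM in ILT3+ samples 1, 2 and 3, against 80.9, 55.0 and 47.3 CPM in ILT3- samples 1, 2 and 3 (log2 fold change 1.63, SE 0.26, adjusted p = 0.0216, edgeR, and 0.00932 with the block). Batf3, known from dendritic cells and also on the dendritic cell marker list, had 14.4, 13.0 and 14.8 CPM in ILT3+ libraries, against 0.240, 0 and 0.363 CPM in the ILT3- libraries (log2 fold change 6.06, SE 0.85, edgeR adjusted p = 0.0150, and 0.0101 with the block). It passed the filter on low counts only through the ILT3+ libraries, and the fitted fold rests on the few ILT3- reads. Of 20 tested other immediate early genes 0 were called by edgeR on the group alone, with 2 higher and 2 lower at an unadjusted p under 0.05 and a median of -0.16. DESeq2 called 1 of them lower and limma voom called 0. With the block 1 was higher and 2 lower, against 4.18% of tested genes higher and 2.62% lower. The higher gene was Rgs1, and the lower ones were Btg2 and Tnfaip3 (edgeR adjusted p = 0.0386, 0.0251 and 0.0375 with the block). The smallest p belonged to Btg2, an antiproliferative gene, with 142 ± 25.1 CPM over ILT3+ samples, against 232 ± 16.8 CPM over ILT3- samples (SD, n = 3 each, edgeR adjusted p = 0.121, with the block 0.0251), and to Gadd45b, a stress and MAP kinase regulator (log2 fold change 0.43, adjusted p = 0.277).

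Of 18 tested genes induced by the T cell receptor 1 rose and 0 fell, with a median of 0.26. The riser was Cd83, with 324 ± 12.1 CPM over ILT3+ samples, against 177 ± 11.0 CPM over ILT3- samples (SD, n = 3 each, log2 fold change 0.87, adjusted p = 0.0341, edgeR, and 0.00800 with the block). With the block 3 were higher and 1 lower, against 4.18% of tested genes higher and 2.62% lower. Beside Cd83 the higher genes were Tnfrsf9 and Ccl3 (edgeR adjusted p = 0.0316 and 0.0208 with the block). Tnfrsf9 averaged 1091 ± 557 CPM over ILT3+ samples, against 618 ± 436 CPM over ILT3- samples (SD). Ccl3 had 0, 0.236 and 2.83 CPM in ILT3- samples 1, 2 and 3, and passed the filter on low counts only through the ILT3+ libraries. The lower gene was Cd5, with 545 ± 35.1 CPM over ILT3+ samples, against 1033 ± 287 CPM over ILT3- samples (SD, n = 3 each). Its edgeR adjusted p was 0.0981 on the group alone and 0.0146 with the block. Of 15 tested EGR and NR4A cofactors and targets 3 rose and 0 fell, with a median of -0.14, namely Lag3, an inhibitory receptor, Nrgn, a calmodulin-binding protein, and Tox2, an HMG-box factor. Lag3 had 189, 123 and 139 CPM in ILT3+ samples 1, 2 and 3, against 48.3, 25.8 and 37.3 CPM in ILT3- samples 1, 2 and 3 (log2 fold change 2.02, SE 0.28, edgeR adjusted p = 0.0147, and 0.00174 with the block). Tox2 rose by 2.67 on the log2 scale (edgeR adjusted p = 0.0241, and 0.00970 with the block). Nrgn had 3.51 to 7.97 CPM in ILT3+ samples, against at most 0.291 CPM in ILT3- samples, where it was near the level of 3 reads (edgeR adjusted p = 0.0194, and 0.0205 with the block). It too passed the filter on low counts only through the ILT3+ libraries. Of the 15, the blocked fit called 4 higher and 3 lower, against 4.18% of tested genes higher and 2.62% lower. The higher genes were Lag3, Tox2, Nrgn and Bhlhe40. Bhlhe40 had 248 ± 57.6 CPM over ILT3+ samples, against 79.4 ± 38.9 CPM over ILT3- samples (SD, n = 3 each). Its edgeR adjusted p was 0.0839 on the group alone and 0.00642 with the block. The lower genes were Dgka, Ndrg1 and Cblb (edgeR adjusted p = 0.00606, 0.0105 and 0.0247 with the block). Dgka had 520 ± 67.1 CPM over ILT3+ samples, against 1043 ± 221 CPM over ILT3- samples (SD, n = 3 each). DESeq2 called 4 of the 15 higher and 2 lower. Of 22 tested MAP kinases and upstream factors 1 rose, Mef2c, a factor known in B cells and muscle (log2 fold change 4.23, SE 0.62, edgeR adjusted p = 0.0170, and 0.00940 with the block), and 0 fell, with a median of -0.04. Mef2c had 0.961, 0.629 and 3.20 CPM in ILT3- samples 1, 2 and 3. It passed the filter on low counts only through the ILT3+ libraries. Of 14 tested heat shock and chaperone genes 0 were called on the group alone or with the block, with a median of -0.01. Without both samples numbered 1, Hspa1a was called higher in ILT3+ (edgeR adjusted p = 0.0313), 1 of 14. The smallest p on the group alone belonged to Hspa5 and Dnajb4 (adjusted p = 0.522 and 0.539). Of these chaperones 0 had an unadjusted p under 0.05, and DESeq2 and limma voom called 0.

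Genes with the most alike pattern were sought by the mean absolute difference in centred log2 CPM over the 6 libraries, among 8599 other genes of at least 10 CPM. For the NR4A mean these were Lhfp, Cnn3, Plk2 and Slc12a4, at 0.27 to 0.33, where the 3 NR4A genes themselves lay at 0.15 to 0.27. For the EGR mean they were Lhfp, Trmt61a, Iars and Hivep3_1, at 0.22 to 0.31, with Egr2 at 0.54 from its own family's mean. For the AP-1 mean they were Fam154a, Afm, Ifit3 and Slc34a2, at 0.16 to 0.44, and Junb lay at 1.04.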

How the data were processed

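RNA of 3 ILT3+ and 3 ILT3- samples was sequenced. Per the labels' protocols, amplified cDNA was prepared from 1 ng of total RNA with SmartSeq V2, and libraries with Nextera XT. The submitters' processing notes name the build GRCm38. Aligner, counting tool, annotation and strand setting were not given in the sources used here. The authors deposited read counts per gene (total, unique, exon, exon-exon and intron) for 38924 genes in each sample. Their RPKM and ratio values were left aside.

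Total gene reads were tested with edgeR 4.0.16 in R 4.3.3 (TMM, minimum count 10 and total 15, robust quasi-likelihood fit on group, Benjamini-Hochberg adjustment over 13694 genes, threshold 0.05). Standard errors were derived from the F statistic. DESeq2 1.42.0 and limma 3.58.1 (voom) were alternatives. The test on the group alone was tried on simulated data without a sample number effect. It recovered 8% of 50 genes changed 2-fold and 72% of 50 changed 4-fold, with 11 false calls among 146. With 9334370 to 13648274 reads per library, 3 reads equal 0.220 to 0.321 CPM before scaling. Members, lists and tests were chosen with earlier results of these data known. Named genes were the members, called list genes (at most 4 per list, otherwise the 2 of smallest p), sort genes, leading markers and genes of most alike pattern. Cd5, Dgka, Ndrg1, Cblb and Tnfaip3 were named because the fit with the block called them lower. Tnfrsf9, Ccl3, Bhlhe40 and Rgs1 were named because it called them higher. Hspa1a, Hspa1b and the genes under other observations were chosen after seeing their values.

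The labels number samples 1 to 3 in each group without saying what a number marks. Across genes, the correlation of deviations from group means was 0.400, 0.260 and 0.271 for ILT3+ and ILT3- samples numbered 1, 2 and 3, all above 0.1, so same-number samples were treated as pairs, from the data alone. Crossing samples 2 and 3 gave 0.163 and 0.117, also above 0.1. The threshold therefore does not single out the same-number pairs of samples 2 and 3.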

Additional observations from a re-analysis of the deposited data

How the results depend on the processing

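Under the replicate block, 573 genes were higher and 359 lower in ILT3+ (269 and 47 on the group alone), and 4 members were lower. On exon reads with the block these were 415, 285 and 4 members, and on intron reads 1 member was lower. The blocked fits without both samples numbered 1, chosen after seeing the data, gave 1112 higher and 589 lower, with 5 members lower and 1 higher. Without both numbered 2 they gave 110 and 19, and without both numbered 3, 73 and 23. On the group alone, exon reads gave 29 lower genes, intron reads 71 higher and 7 lower, DESeq2 697 and 254 with 1 member lower, and the fit without both samples numbered 1 gave 625 and 161, with 1 member higher and 1 lower. Leaving out 1 library at a time gave 27 to 274 higher and 1 to 48 lower genes, and 0 members, with 27 to 63 higher genes without either of samples 2 or 3 of a group (ILT3+ 51 and 56, ILT3- 63 and 27). Nr4a1, Nr4a2, Nr4a3, Egr1 and Egr3 kept their negative sign under all alternatives run, but not their size. With 1 library left out they spanned -1.73 to -0.82, -1.64 to -0.16, -1.98 to -0.88, -1.84 to -0.24 and -1.42 to -0.50 in that order, the smallest each time without ILT3- sample 3. The sign of others turned, and the cause was not tested. Egr2 was 0.37 by limma voom, 0.47 with the block, 0.45 with it on exon reads, 0.031, 0.38 and 1.05 in the blocked fits without numbers 1, 2 and 3, and -0.59 to 1.44 with 1 library left out. Fosb was -0.22, -0.34, -0.38, -0.65, -0.21 and -0.14 in the same order, -0.0078 on intron reads with the block, -0.65 without both samples numbered 1, and -3.16 to 2.61 with 1 library left out. Jun was 0.57 without both samples numbered 1, 0.54 with the block in addition, and -2.49 to 1.73 with 1 library left out. Fos spanned -4.96 to 2.77 and Junb -0.064 to 1.07 with 1 library left out. The median difference in intron share of members, -0.11 percentage points, spanned -3.42 to 2.15 with 1 library left out. DESeq2 gave no adjusted p for Fos, Fosb and Jun. Depth limits Egr3, with 9 to 58 reads.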

Other observations

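Beside Fos, Fosb and the inducible HSP70 genes, further genes of at least 10 CPM ranked high in both samples 1. Dtx1, a regulator of Notch signalling, had 56.7, 3.62 and 2.55 CPM in ILT3+ samples 1, 2 and 3, against 81.8, 2.51 and 2.25 CPM in ILT3- samples 1, 2 and 3. Klf2, a factor of T cell quiescence and recirculation, had 34.3, 2.01 and 4.87 CPM in ILT3+ libraries, against 108, 19.2 and 10.4 CPM in the ILT3- libraries. Some relatives of the members went the other way. Crem, a CRE-binding factor, had 65.5, 395 and 361 CPM in ILT3+ samples 1, 2 and 3, against 37.6, 416 and 369 CPM in ILT3- samples 1, 2 and 3. Fosl2, a FOS relative, had 13.8, 82.6 and 96.1 CPM in ILT3+ libraries, against 11.5, 92.6 and 117 CPM in the ILT3- libraries. Zfp36, which encodes an mRNA-destabilising protein, was on the side of Fos, with 530.3, 91.3 and 121 CPM in ILT3+ and 813, 79.0 and 151 CPM in ILT3- samples. The groups of each of these 5 genes overlapped.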
